A study of Mus musculus with 12 samples.

Results

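The genes described here are the 3 TAM receptor tyrosine kinases, Axl, Tyro3 and Mertk, and their 2 ligands, Gas6 and Pros1. They were chosen by gene symbol alone, as every probe set that the array's annotation assigns to one of these 5 genes, which gave 5 of the 18193 genes with a symbol of their own and 8 of the 45101 probe sets. Axl, Tyro3 and Gas6 have 2 probe sets each, and Mertk and Pros1 have 1 each. RNA was measured on 12 arrays of B16-F10 cells, an established pigmented line of mouse melanoma, with 4 arrays for each of 3 transfected vectors. The first vector carried FoxD3-VP16, a form of chicken FoxD3 whose C-terminal repression domain was exchanged for the activation domain of VP16, a viral protein. The second carried chicken FoxD3, and the third was the empty vector pMES. All 3 vectors used the chick beta-actin promoter and also made EGFP through an internal ribosome entry site. All cells were sorted for EGFP 24 h after transfection, so the empty-vector cells too were transfected, EGFP-positive and sorted. FoxD3, a forkhead protein, acts in the early neural crest, and the design asks how cells respond to it and whether the response differs once its repression domain is replaced by an activating one.

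TAM receptors bind Gas6 or protein S (the product of Pros1), whose vitamin K-dependent Gla domains attach to phosphatidylserine on the outer face of dying or activated cells. Mertk and Axl are best known in macrophages and other phagocytes, where they drive the engulfment of dying cells and dampen inflammatory signalling. In human melanoma, AXL is known as a marker of cells with low MITF that tolerate inhibitors of the BRAF pathway, whereas TYRO3 has been placed upstream of MITF expression.

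The promoters of all 5 genes were found in the RefSeq table of build GRCm38.p6, which gives 250 bases before and 50 bases after each transcription start. Those of Axl, Tyro3 and Mertk are printed 5′ to 3′ on the strand of the gene, because Axl and Tyro3 had the opposite sign to Mertk in the comparison of FoxD3-VP16 with FoxD3. Letters of a searched motif stand in capitals.
Axl promoter, chr7:25788684-25788983, minus strand: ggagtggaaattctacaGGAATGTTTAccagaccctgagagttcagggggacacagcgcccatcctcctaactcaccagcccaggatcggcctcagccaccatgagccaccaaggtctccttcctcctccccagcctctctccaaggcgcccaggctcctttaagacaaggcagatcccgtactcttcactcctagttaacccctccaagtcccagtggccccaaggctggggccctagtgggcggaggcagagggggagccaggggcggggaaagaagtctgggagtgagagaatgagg
Tyro3 promoter, chr2:119799264-119799563, plus strand: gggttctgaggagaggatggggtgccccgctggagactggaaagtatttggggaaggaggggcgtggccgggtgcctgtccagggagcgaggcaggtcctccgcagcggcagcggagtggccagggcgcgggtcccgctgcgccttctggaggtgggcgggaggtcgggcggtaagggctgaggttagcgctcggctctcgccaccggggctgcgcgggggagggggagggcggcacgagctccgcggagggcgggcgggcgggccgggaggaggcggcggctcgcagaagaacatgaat
Mertk promoter, chr2:128698665-128698964, plus strand: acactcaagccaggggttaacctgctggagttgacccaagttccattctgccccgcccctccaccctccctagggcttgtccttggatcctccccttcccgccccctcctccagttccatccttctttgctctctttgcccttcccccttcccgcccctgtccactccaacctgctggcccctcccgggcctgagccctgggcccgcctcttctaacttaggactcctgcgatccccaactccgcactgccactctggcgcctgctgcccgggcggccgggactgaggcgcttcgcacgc
The motifs searched on both strands were the forkhead core TAAACA, the AP-1 site TGANTCA, the TEAD site CATTCC and the M-box CATGTG read by Mitf. In the Axl window the forkhead core was present on the opposite strand, read here as TGTTTA and beginning 229 bases before the start. Its first letters overlap the end of the TEAD letters, read here as GGAATG and beginning 233 bases before the start. None of the 4 motifs was present in the windows of Tyro3, Mertk, Gas6 or Pros1. Of 32851 mouse promoters of this length, 13.4% held the forkhead core, 14.7% the TEAD site, 14.2% the M-box and 7.81% the AP-1 site. The base composition was 60.3% G+C for Axl, 73.3% for Tyro3, 66.0% for Mertk, 58.3% for Gas6 and 66.7% for Pros1, against a median of 52.7% over all promoters.

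Intensities below are the values deposited by the authors. Changes are differences of quantile-normalised log2(intensity + 16) with their standard error (SE), a scale that understates the change of dim probe sets. Probe sets differ in their response, so levels are compared between arrays and never between genes. Tests are limma's, adjusted by Benjamini-Hochberg over all 27022 probe sets above a brightness limit of 5.595 on that scale, and a probe set with an adjusted p under 0.05 is called changed. Of the 8 probe sets, 6 lay above the limit. Counts at an unadjusted p under 0.05 are to be read against those over all 27022. These were 3231 for FoxD3 against the empty vector, 2103 for FoxD3-VP16 against the empty vector and 4786 for FoxD3-VP16 against FoxD3. The labels do not say whether arrays of a group came from separate cultures, and the p-values cover only the spread between these arrays, which may be technical. Arrays that share a replicate number deviated together, and a second fit, with that number as a block, is given where it changes a call. List genes named only for a call in that second fit were chosen after their values were seen. In these sorted populations fewer cells carrying a transcript and less transcript per cell cannot be told apart. All 12 melanocyte genes checked, among them Tyrp1, Dct and Mlana, were above the limit, as befits a pigmented line. The mouse Foxd3 probe set was below the limit in all 3 groups, with mean log2 levels of 4.61, 4.81 and 4.70 for FoxD3-VP16, FoxD3 and empty vector, and since both transgenes are of chicken sequence it does not check the labels. The 3 arrays numbered 1 stood apart, with hybridisation controls at log2 levels of 14.31 to 14.5. Those numbered 2 had 12.69 to 12.89, those numbered 3 had 11.54 to 11.73 and those numbered 4 had 11.53 to 11.59. Controls for 18S RNA were at 12.83 to 13.07 on number 1 and 9.312 to 10.1 on the other 9. The 3′ minus 5′ log2 level of Gapdh was 0.56 to 0.767 on number 1 and -0.252 to 0.0419 on the other 9.

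Without the block Axl was the one member called with FoxD3 against the empty vector, and with the block Tyro3 was called too (adjusted p = 0.0140). Its brighter probe set, 1423586_at, had intensities of 294.7, 145.9, 159.7 and 202.1 with FoxD3-VP16 on arrays 1 to 4. It had 430.0, 269.4, 557.5 and 611.9 with FoxD3, and 121.7, 97.0, 175.5 and 129.2 with the empty vector. Every FoxD3 array was thus above every empty-vector array, while the FoxD3-VP16 values lay between and overlapped both other groups. The group means were 7.73 ± 0.42 with FoxD3-VP16, 8.85 ± 0.50 with FoxD3 and 7.17 ± 0.36 with the empty vector (log2, SD, n = 4 each). Axl was 3.20-fold higher with FoxD3 than with the empty vector, a log2 change of 1.68 (SE 0.30, 95% interval 1.03 to 2.32, limma adjusted p = 0.0109). All 4 numbered pairs had the same direction, with differences of 1.20 to 2.03. Over all probe sets tested, 1.87% were called in this comparison, and 0.64% had a higher log2 change than Axl. For 4.96% of probe sets all 4 FoxD3 arrays were above all 4 empty-vector arrays. The call was lost without FoxD3 array 3 (adjusted p = 0.0514) or FoxD3 array 4 (adjusted p = 0.0570), with changes of 1.53 to 1.91 over all single arrays left out.

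With FoxD3-VP16 Axl was 1.47-fold above the empty vector, which did not pass the test (log2 change 0.56, 95% interval -0.09 to 1.20, adjusted p = 0.730), and 3 of 4 pairs were higher. In that comparison 0.229% of probe sets were called. Set against FoxD3 itself, Axl was 2.18-fold lower with FoxD3-VP16, a log2 change of -1.12 (SE 0.30, 95% interval -1.77 to -0.48, adjusted p = 0.0444), where 5.63% of probe sets were called. All 4 pairs were lower, by 0.60 to 1.66, although the FoxD3-VP16 value on array 1 was above the FoxD3 value on array 2. The order of the 3 vectors for Axl was therefore FoxD3, FoxD3-VP16, empty vector, and the last 2 did not differ beyond their spread. The call between FoxD3-VP16 and FoxD3 was close to the threshold. It was lost when FoxD3-VP16 array 2, 3 or 4 or FoxD3 array 1, 3 or 4 was left out, with adjusted p-values of up to 0.153. It was also lost without empty-vector array 2 (adjusted p = 0.0501) or 4 (0.0634), which are in neither group, and there the change stayed at -1.12. Over all single arrays left out the changes were -1.36 to -0.98. The second Axl probe set, 1438621_x_at, was below the limit and not tested. Its intensities were 72.95, 47.6, 13.4 and 3.303 with FoxD3-VP16, 8.65, 29.7, 27.8 and 15.9 with FoxD3, and 38.6, 11.1, 9.60 and 3.79 with the empty vector, so the groups overlapped throughout. When both Axl probe sets were averaged, the change with FoxD3 against the empty vector was 1.06 (adjusted p = 0.0387), and that of FoxD3-VP16 against FoxD3 was -0.53 (adjusted p = 0.246).

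**Figure D1:**
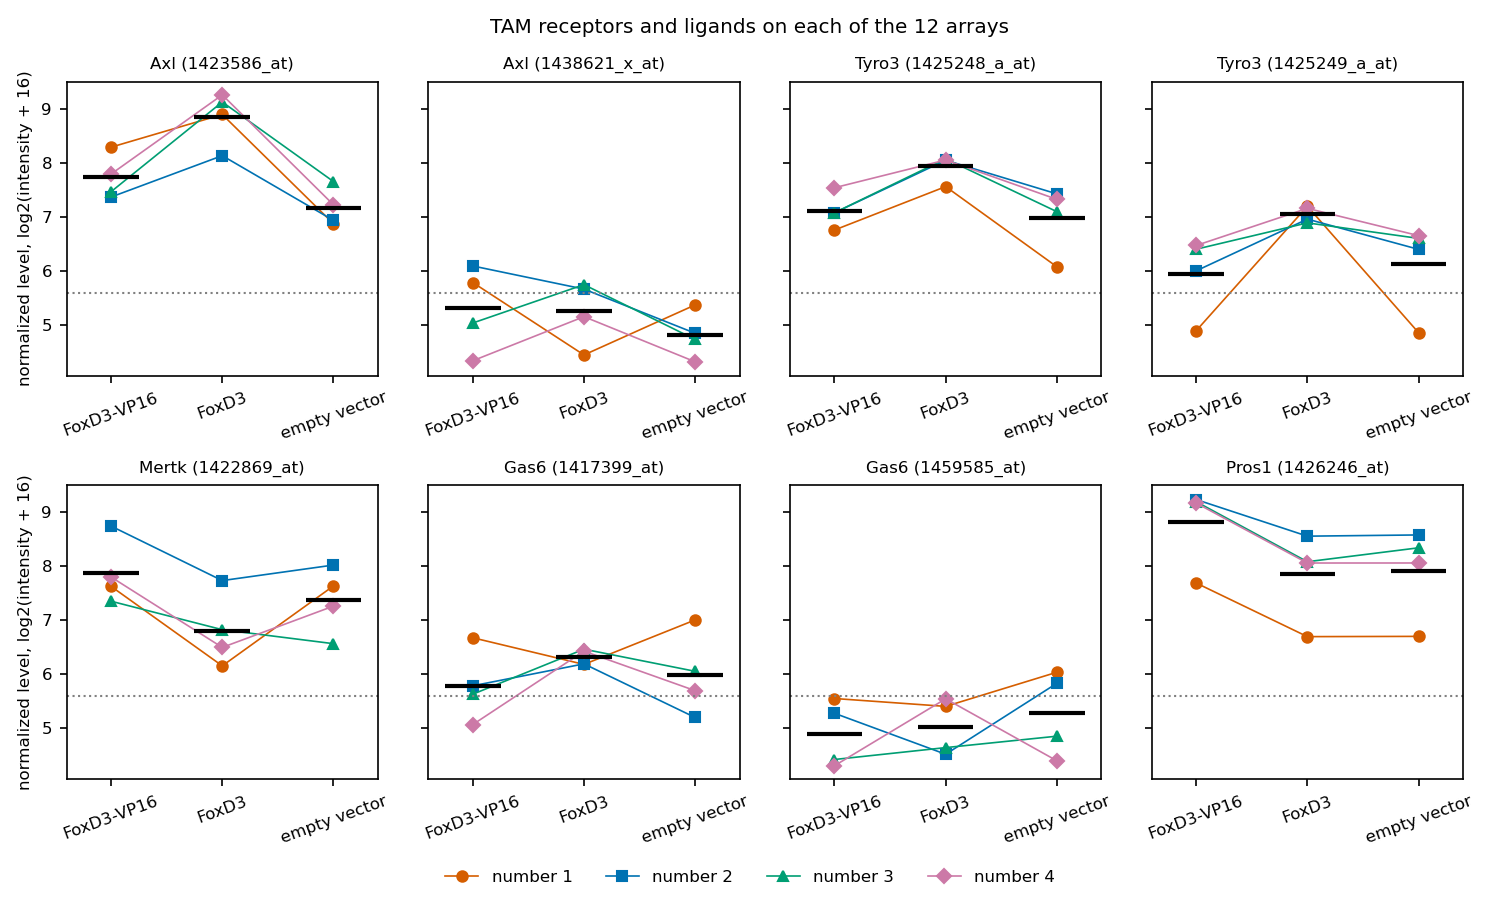
Each panel shows 1 probe set, with the quantile-normalised level, log2(intensity + 16), on the vertical axis and the 3 vectors on the horizontal axis. Points are arrays, lines join arrays of the same replicate number, black bars are group means of 4 arrays and the dotted line is the brightness limit of 5.595. The 4 FoxD3 arrays of Axl 1423586_at all lie above the 4 empty-vector arrays.

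Tyro3 is a TAM receptor with high expression in brain, and both of its probe sets were above the limit. Probe set 1425248_a_at had intensities of 130.5, 114.6, 117.0 and 164.4 with FoxD3-VP16, 181.7, 250.7, 252.5 and 249.7 with FoxD3, and 76.7, 147.4, 109.9 and 140.5 with the empty vector. The 4 FoxD3 arrays were above all 8 others. Against the empty vector the log2 change with FoxD3 was 0.95 (1.93-fold, SE 0.31, 95% interval 0.28 to 1.62), positive in 4 of 4 pairs. This missed the threshold without the replicate number (adjusted p = 0.178) and passed with it as a block (adjusted p = 0.0140), a fit that called 6.54% of probe sets higher. FoxD3-VP16 against FoxD3 gave a change of -0.82 (1.77-fold lower, SE 0.31, 95% interval -1.49 to -0.15) in 4 of 4 pairs, again not called without the block (adjusted p = 0.165) and called with it (adjusted p = 0.0185), where 10.6% were called lower. For 7.2% of probe sets all 4 FoxD3-VP16 arrays were below all 4 FoxD3 arrays, and for 4.96% all 4 FoxD3 arrays were above all 4 empty-vector arrays. The share with FoxD3 above all 8 others was not computed. FoxD3-VP16 and the empty vector differed by 0.13 (95% interval -0.54 to 0.80, adjusted p = 0.985).

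The dimmer Tyro3 probe set, 1425249_a_at, had intensities of 22.9, 43.55, 60.85 and 62.9 with FoxD3-VP16, 146.2, 103.1, 92.9 and 117.8 with FoxD3, and 17.9, 60.5, 70.2 and 79.7 with the empty vector. As with the brighter one, the FoxD3 arrays were the 4 highest of the 12, and how many probe sets share this order was not computed. The change with FoxD3 against the empty vector was 0.92 (SE 0.44, adjusted p = 0.433, and 0.107 with the block), so this probe set was not called in either fit. The change of FoxD3-VP16 against FoxD3 was -1.11 (SE 0.44, adjusted p = 0.188, and 0.0354 with the block). FoxD3-VP16 against the empty vector gave -0.19 (adjusted p = 0.985). The largest pair differences of this probe set, 2.34 with FoxD3 against the empty vector and -2.30 with FoxD3-VP16 against FoxD3, came from arrays numbered 1.

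Mertk, the TAM receptor of phagocytes and of the retinal pigment epithelium, had its lowest mean with FoxD3. Its intensities were 201.2, 415.7, 146.2 and 203.6 with FoxD3-VP16, 80.3, 197.9, 87.0 and 64.4 with FoxD3, and 188.1, 239.1, 68.3 and 133.6 with the empty vector. Array 2 was the highest of each group, and the 3 groups overlapped. With FoxD3-VP16 Mertk was 2.11-fold above FoxD3, a log2 change of 1.08 (SE 0.41, 95% interval 0.19 to 1.96) that was positive in 4 of 4 pairs, from 0.53 to 1.47. It was not called without the block (adjusted p = 0.171) and was called with it (adjusted p = 0.00890), in a fit that called 10.1% of probe sets higher. FoxD3 against the empty vector gave -0.57 (95% interval -1.45 to 0.32, adjusted p = 0.686, and 0.187 with the block), with 3 of 4 pairs lower. FoxD3-VP16 against the empty vector gave 0.51 (95% interval -0.38 to 1.39, adjusted p = 0.884, and 0.295 with the block).

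Of the ligands, Pros1 encodes protein S, an anticoagulant cofactor in plasma and a ligand that activates Tyro3 and Mertk. Its intensities were 207.9, 591.0, 587.4 and 576.7 with FoxD3-VP16, 109.5, 372.0, 254.8 and 251.7 with FoxD3, and 111.2, 362.8, 305.4 and 251.8 with the empty vector. Array 1 was the lowest of its group each time, and within every number FoxD3-VP16 was the highest. Against the empty vector Pros1 was 1.87-fold higher with FoxD3-VP16 (log2 change 0.90, SE 0.49, 95% interval -0.15 to 1.95), with pair differences between 0.65 and 1.11. Without the block this was far from the threshold (adjusted p = 0.734). With the block the SE was 0.16 and the change was called (adjusted p = 0.00706), where 3.06% of probe sets were called higher. Against FoxD3 the change with FoxD3-VP16 was 0.97 (1.96-fold, SE 0.49, 95% interval -0.08 to 2.02, adjusted p = 0.331 without the block and 0.000811 with it), and again 4 of 4 pairs were higher. Between FoxD3 and the empty vector the change was -0.07 (95% interval -1.12 to 0.98, adjusted p = 0.989, and 0.835 with the block).

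Gas6, the ligand that binds all 3 TAM receptors and Axl most tightly, was dim. Probe set 1417399_at had intensities of 126.0, 35.4, 26.3 and 13.9 with FoxD3-VP16, 81.7, 50.95, 61.2 and 60.1 with FoxD3, and 130.7, 18.7, 41.9 and 32.4 with the empty vector. In the deposited intensities array 1 was the highest of each group. After quantile normalisation array 1 was highest with FoxD3-VP16 and with the empty vector and lowest with FoxD3, at 6.18 against 6.19 to 6.47 on the other FoxD3 arrays. None of its comparisons was called in either fit. The log2 change was 0.33 for FoxD3 against the empty vector (95% interval -0.56 to 1.22, adjusted p = 0.877), -0.20 for FoxD3-VP16 against the empty vector (95% interval -1.09 to 0.69, adjusted p = 0.984) and -0.53 for FoxD3-VP16 against FoxD3 (95% interval -1.42 to 0.36, adjusted p = 0.595). The second probe set, 1459585_at, was below the limit and not tested, with intensities of 2.98 to 58.1 with FoxD3-VP16, 5.71 to 42.0 with FoxD3 and 4.995 to 74.9 with the empty vector.

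**Figure D2:**
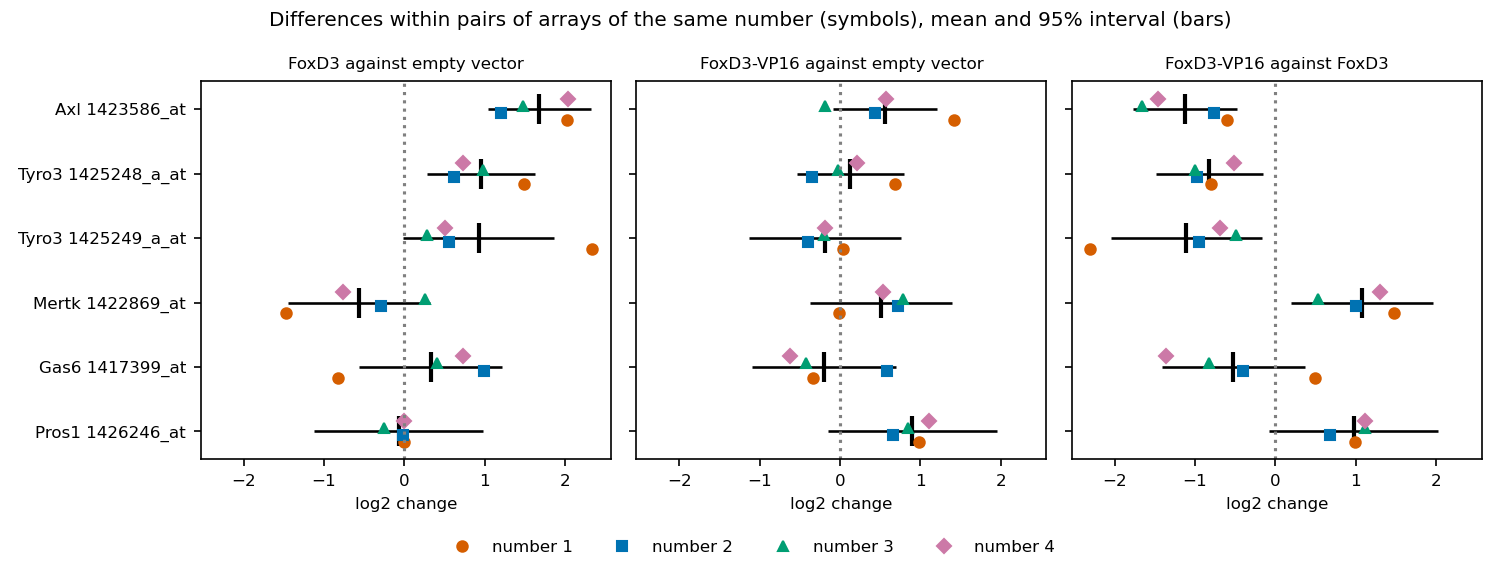
Log2 differences between arrays of the same replicate number are drawn for the 6 member probe sets above the brightness limit, with 1 panel per comparison, points for the 4 pairs, a black tick for the mean, a black line for its 95% interval in the fit without the block and a dotted line at 0. For FoxD3 against the empty vector the 4 Axl points lie between 1.20 and 2.03, and for FoxD3-VP16 against FoxD3 the Axl and Tyro3 points lie below 0 and those of Mertk and Pros1 above it.

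FoxD3 and FoxD3-VP16 were both set against the same 4 empty-vector arrays, so the 3 comparisons are not independent of each other. As a description of how members varied together, the levels of Axl over the 12 arrays correlated with those of Tyro3 at r = 0.66 and with those of Mertk at r = -0.64, and those of Mertk and Pros1 at r = 0.52. Gas6 and Pros1 had r = -0.71. These arrays share vectors and replicate numbers, and no test was made.

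Mitf, the transcription factor that directs pigment genes, was 2.13-fold lower in FoxD3 cells than under the empty vector (log2 change -1.09, SE 0.19, limma adjusted p = 0.00812), and Pax3, which acts upstream of it, was 2.07-fold lower (adjusted p = 0.00676). Sox10, a neural crest factor, was 1.66-fold higher (adjusted p = 0.00568). Over the 12 arrays Mitf correlated with Axl at r = -0.68, with Tyro3 at r = -0.51 and with Mertk at r = 0.27. Of the 12 melanocyte genes 1 rose and 2 fell, with a median change of -0.15, while 1.36% of all probe sets were called higher and 0.503% lower. The pigment genes Dct, Tyrp1 and Mlana had changes of -0.06, -0.28 and -0.13 that did not pass, and Tyrp1 passed with the block (adjusted p = 0.00360). With the block 2 of the 12 rose and 5 fell, where 6.54% of all probe sets were called higher and 5.1% lower. With FoxD3-VP16 against the empty vector Sox10 was called, and it fell by 0.72 on the log2 scale (adjusted p = 0.0268). With the block 4 of the 12 fell, where 2.19% of all probe sets were called lower, and Mitf was among them (-0.43, adjusted p = 0.598 without the block and 0.0416 with it). Against FoxD3, Sox10 was lower with FoxD3-VP16 (log2 change -1.45, adjusted p = 2.98e-05), while Pax3 (0.84, adjusted p = 0.0118) and Tyr, which encodes tyrosinase (0.89, adjusted p = 0.0491), were higher. Of all probe sets 2.91% were called higher and 2.72% lower. With the block 5 of the 12 were higher and 3 lower, where 10.1% of all probe sets were called higher and 10.6% lower.

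Genes reported to accompany AXL in human melanoma were counted as a list. It had 18 genes, of which 17 were on the array and 13 were tested. With FoxD3 4 of the 13 rose and none fell, with a median change of 0.74, against a median of -0.02 over all probe sets, of which 1.36% were called higher. Ngfr, the nerve growth factor receptor of neural crest-like melanoma cells, had mean log2 levels of 8.27 with FoxD3 and 5.27 with the empty vector (adjusted p = 0.00429). Fstl3, an inhibitor of activin, had 7.70 with FoxD3 and 5.34 with the empty vector (adjusted p = 0.0191). For both, the empty-vector mean was below the brightness limit, so no fold is given. The FoxD3-VP16 mean of Ngfr, 5.20, was below it too, so Ngfr passed the filter only through FoxD3. That filter favoured a rise of Ngfr with FoxD3. The counts and the median given here include Ngfr and were not computed without it. Phlda2, an imprinted growth regulator, was 4.28-fold higher (adjusted p = 0.0412), and Gpc1, a heparan sulphate proteoglycan, 2.16-fold (adjusted p = 0.00193). The brightest genes not called were Tmsb10 (0.07), Tnfrsf12a (1.09, adjusted p = 0.475, and 0.00674 with the block) and Gbe1 (-0.17). Fosl1 (0.42), Igfbp3 (-0.54), Wnt5a (-0.79) and Zeb1 (-0.28) lay below the limit and were not tested, so they are in neither count. With the block 7 of the 13 rose and none fell, where 6.54% of all probe sets were called higher.

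With FoxD3-VP16 against the empty vector limma called no gene of this list in either fit, 1 of the 13 had an unadjusted p under 0.05, and the median was 0.00. With FoxD3-VP16 against FoxD3 5 of the 13 were called and all 5 were lower, with a median of -1.11, against a median of -0.003 and 2.72% called lower over all probe sets. Ngfr had a fitted log2 change of -3.07 (adjusted p = 0.00151), with its FoxD3-VP16 mean below the limit, Phlda2 had -2.18 (adjusted p = 0.0161), Fstl3 -1.83 (adjusted p = 0.0341) and Sec14l2, a lipid-binding protein, -1.83 (adjusted p = 0.00438). Gpc1 was the fifth at -1.11 (adjusted p = 0.000772) and is named after its value was seen. The 5 and the median again include Ngfr, which passed the filter only through FoxD3. Without the arrays numbered 1, 4 of 13 rose with FoxD3 against the empty vector, where 4.01% of all probe sets were called in either direction, and 7 of 13 fell with FoxD3-VP16 against FoxD3, where 10.9% were.

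AP-1 and TEAD proteins have been placed upstream of AXL in human cells, and the list of these factors also held TEAD targets such as Ccn1 and Ccn2. Of 14 genes of the list tested, 1 rose with FoxD3, where 1.36% of all probe sets were called higher. It was Fosl2, an AP-1 subunit, which was 2.31-fold higher than with the empty vector (adjusted p = 0.0395). Wwtr1 (0.11), Yap1 (-0.14) and Jund (0.94, adjusted p = 0.221, and 0.000147 with the block) were the brightest not called. With the block 2 rose and none fell, where 6.54% of all probe sets were called higher and 5.1% lower. With FoxD3-VP16 against the empty vector 1 was called, the TEAD target Ccn2, which was 5.82-fold higher (adjusted p = 0.0268). Of all probe sets 0.229% were called there. With the block Tead2 was also higher (0.91, adjusted p = 0.0159) and Jun lower (-1.01, adjusted p = 0.0367). That fit called 3.06% of all probe sets higher and 2.19% lower. With FoxD3-VP16 against FoxD3 the AP-1 subunits Fosl2 (-1.55, adjusted p = 0.00426), Jun (-1.48, adjusted p = 0.0283) and Jund (-1.20, adjusted p = 0.0498) were lower. Ccn2 was higher (2.23, adjusted p = 0.00636), as was Ccn1, a second TEAD target (0.77, adjusted p = 0.0486), which is named after its value was seen. The called AP-1 subunits and the called TEAD targets thus had opposite signs. Fos, Fosb and Junb were not called, and Fosl1 and Ankrd1 lay below the limit. No difference between these classes was tested in this comparison. Of all probe sets 2.91% were called higher and 2.72% lower in it. With the block 4 of the 14 were higher and 4 lower, where 10.1% of all probe sets were called higher and 10.6% lower.

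Among 29 receptor tyrosine kinases above the brightness limit, the 3 TAM receptors included, Axl ranked 4th from the highest change with FoxD3 against the empty vector, Tyro3 8th and Mertk 25th. Of the 26 other kinases 5 rose and none fell, where 1.36% of all probe sets were called higher and 0.503% lower. With the block 7 rose and 2 fell, where 6.54% of all probe sets were called higher and 5.1% lower. The 2 that fell there were Epha3 (-1.17, adjusted p = 0.000414) and Met (-0.40, adjusted p = 0.00193), named after their values were seen. Epha2, an ephrin receptor, was 7.07-fold higher (adjusted p = 0.00296), Pdgfrb, a receptor for platelet-derived growth factor, 3.57-fold (adjusted p = 0.00429), Aatk 3.56-fold (adjusted p = 0.0148) and Fgfr3, a receptor for fibroblast growth factors, 2.85-fold (adjusted p = 0.0148). Erbb3, the neuregulin receptor of neural crest cells, was the fifth (1.95-fold, adjusted p = 0.00660) and is named after its value was seen. The change of Axl lay within the range of these 5. Without the arrays numbered 1, 6 of 25 others rose and none fell, against 4.01% of all probe sets called in either direction.

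With FoxD3-VP16 against the empty vector Axl ranked 7th of the 29, Mertk 8th and Tyro3 14th, and of the other kinases Pdgfrb was called (3.04-fold higher, adjusted p = 0.0362). Of all probe sets 0.229% were called there. With the block Epha3 was also higher (0.84, adjusted p = 0.00989) and Erbb3 lower (-0.62, adjusted p = 0.0194). That fit called 3.06% of all probe sets higher and 2.19% lower. With FoxD3-VP16 against FoxD3 Mertk ranked 3rd, Tyro3 22nd and Axl 25th. Over all probe sets 2.91% were called higher and 2.72% lower. Of the 26 others 1 was higher, the ephrin receptor Epha3 (log2 change 2.01, adjusted p = 0.00204), and 4 were lower: Epha2 (-2.80, adjusted p = 0.00126), Aatk (-2.79, adjusted p = 0.000460), Erbb3 (-1.58, adjusted p = 0.000136) and Fgfr3 (-1.58, adjusted p = 0.00504), the last named after its value was seen. The FoxD3-VP16 mean of Aatk, 5.46, was below the limit. With the block 2 of the 26 were higher and 6 lower, where 10.1% of all probe sets were called higher and 10.6% lower. Pdgfrb was thus higher than with the empty vector for both FoxD3 forms, whereas Axl passed the test with FoxD3 and missed it with FoxD3-VP16.

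**Figure D3:**
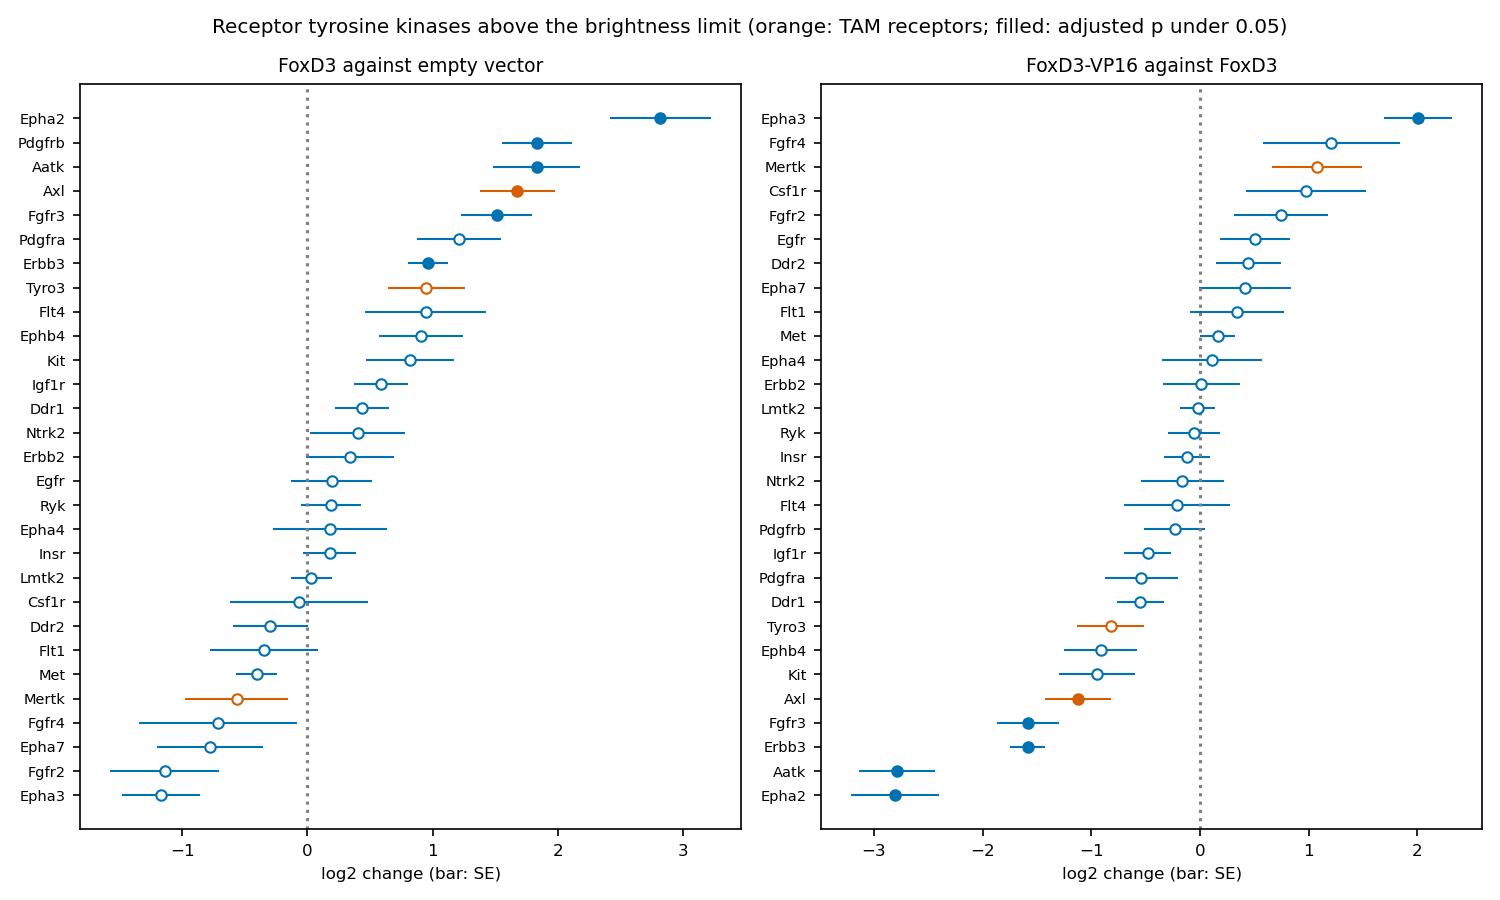
Log2 changes of the receptor tyrosine kinases above the brightness limit are drawn for FoxD3 against the empty vector and FoxD3-VP16 against FoxD3, with bars for the standard error, orange for Axl, Tyro3 and Mertk, and filled points where the adjusted p was under 0.05. For FoxD3 against the empty vector Axl lies 4th of 29 and Mertk 25th, and for FoxD3-VP16 against FoxD3 Mertk lies 3rd and Axl 25th.

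Signalling below the receptors was covered by 27 tested adaptors and effectors. With FoxD3 1 of the 27 rose: Socs3, a suppressor of cytokine signalling that TAM receptors are known to induce in dendritic cells, was 4.74-fold higher than with the empty vector (log2 change 2.25, SE 0.35, adjusted p = 0.00493). The bright genes Rac1 (0.11), Crk (0.20) and Akt1 (0.22) were not called. Of all probe sets 1.36% were called higher and 0.503% lower. With the block 2 of the 27 rose and 3 fell, where 6.54% of all probe sets were called higher and 5.1% lower. With FoxD3-VP16 against the empty vector limma called none of the 27. An unadjusted p under 0.05 was found for 5 of them, and for 2103 of all 27022 probe sets. With the block 3 rose, where 3.06% of all probe sets were called higher. Against FoxD3, Socs3 was lower with FoxD3-VP16 (-1.69, adjusted p = 0.0123), and the adaptors Shc1 (1.16, adjusted p = 0.00956) and Nck1 (0.83, adjusted p = 0.00386) were higher. Of all probe sets 2.91% were called higher and 2.72% lower. With the block 5 of the 27 were higher and 3 lower, where 10.1% of all probe sets were called higher and 10.6% lower.

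TAM receptors are cut from the cell surface by the proteases Adam10 and Adam17, and the iRhom proteins Rhbdf1 and Rhbdf2 carry Adam17 to the surface. Of 7 genes of this process 1 rose with FoxD3, Rhbdf1, which was 2.57-fold higher than with the empty vector (SE 0.13 on the log2 scale, adjusted p = 0.000242). The bright genes Adam10 (-0.09), Adam17 (0.18) and the protease inhibitor Timp2 (0.52, adjusted p = 0.548, and 0.000383 with the block) were not called, and with the block 3 of the 7 rose. Of all probe sets 1.36% were called higher without the block and 6.54% with it. With FoxD3-VP16 against the empty vector limma called none and none had an unadjusted p under 0.05. With the block 1 rose, where 3.06% of all probe sets were called higher. With FoxD3-VP16 against FoxD3 Rhbdf1 (-1.46, adjusted p = 6.15e-05) and Rhbdf2 (-1.11, adjusted p = 0.0419) were lower, as was Timp2 with the block (-0.38, adjusted p = 0.00178). Of all probe sets 2.72% were called lower without the block and 10.6% with it.

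Genes of the ligand side were counted in the same way. None of 6 genes of vitamin K-dependent carboxylation, which lets Gas6 and protein S bind phosphatidylserine, was called by limma in any of the 3 comparisons in either fit, and none had an unadjusted p under 0.05. The brightest were Calu, Vkorc1 and Ggcx, with changes of 0.13, -0.11 and -0.08 for FoxD3 against the empty vector. Of 6 genes for phosphatidylserine exposure, 1 was called, the scramblase family member Plscr1, which was 2.46-fold higher with FoxD3-VP16 than with FoxD3 (adjusted p = 0.00466). Of all probe sets 2.91% were called higher there. In each comparison with the empty vector limma called none of the 6 without the block, and 1 had an unadjusted p under 0.05. With the block Plscr1 was lower with FoxD3 (-0.74, adjusted p = 0.00116) and higher with FoxD3-VP16 (0.56, adjusted p = 0.0167), each against the empty vector. With the block Atp11a, a phosphatidylserine flippase, was higher with FoxD3 than with the empty vector (0.31, adjusted p = 0.0211) and lower with FoxD3-VP16 than with FoxD3 (-0.46, adjusted p = 0.000867). Of 11 other receptors and bridges for phosphatidylserine, 1 rose with FoxD3, where 1.36% of all probe sets were called higher. It was the endocytic receptor Lrp1, which was 2.96-fold higher than with the empty vector (adjusted p = 0.0352). The brightest of that list, Lgals3 (0.37), Itgav (-0.21) and the bridging protein Mfge8 (0.68, adjusted p = 0.110, and 0.00790 with the block), were not called. In either comparison of FoxD3-VP16 limma called none of the 11 without the block, and 4 each had an unadjusted p under 0.05. Over all 27022 probe sets 2103 had such a p against the empty vector and 4786 against FoxD3. With the block 2 were higher with FoxD3-VP16 than with the empty vector, Mfge8 (0.72, adjusted p = 0.0126) and the integrin subunit Itgb5 (0.96, adjusted p = 0.00104), where 3.06% of all probe sets were called higher. With the block 4 were higher and 2 lower with FoxD3-VP16 than with FoxD3, where 10.1% of all probe sets were called higher and 10.6% lower.

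Macrophages also express Axl, Mertk and Gas6, so their markers were measured. Of 13 macrophage and leukocyte markers 6 were above the limit. These were Csf1r (mean log2 level 6.55), Laptm5 (6.55), Adgre1 (6.35), Cd68 (6.10), Fcgr1 (5.68) and Lyz2 (5.61). None of these 6 was called by limma in any comparison, and none had an unadjusted p under 0.05. Ptprc, Cd14, Itgam, Tyrobp, Aif1, C1qa and C1qb were below the limit. The summed intensity of the 13 was 359 to 2500 with FoxD3-VP16, 344 to 4940 with FoxD3 and 302 to 1430 with the empty vector. Laptm5 alone reached 1740, 4500 and 969 on the arrays numbered 1. Without it the sums were 353 to 767 with FoxD3-VP16, 309 to 436 with FoxD3 and 297 to 459 with the empty vector. Laptm5 was left out after its values were seen, and the part of macrophage RNA in the results was not tested. Of 4 fibroblast markers tested, Col1a1 and Pdgfrb rose with FoxD3, and Pdgfrb rose with FoxD3-VP16 against the empty vector. Of all probe sets 1.36% were called higher in the first of these comparisons, and 0.229% were called in the second. Col1a1 had mean log2 levels of 7.80 with FoxD3 and 5.12, below the limit, with the empty vector (adjusted p = 0.0148). The other 2 tested were Col1a2, which had a change of -0.72 with FoxD3 (adjusted p = 0.563), lower in 4 of 4 pairs, and Pdgfra, with 1.21 (adjusted p = 0.102, and 0.0268 with the block). The 8 fibroblast markers summed to 809 to 1150 with FoxD3-VP16, 1110 to 1400 with FoxD3 and 431 to 615 with the empty vector, and Col3a1, Dcn, Lum and Thy1 were below the limit. The part of fibroblast RNA in the Axl result was not tested. None of the 4 was called by limma with FoxD3-VP16 against FoxD3, where 1 had an unadjusted p under 0.05. With the block Col1a1 was lower (-1.60) and Col1a2 higher (0.84), where 10.1% of all probe sets were called higher and 10.6% lower. Of 8 endothelial markers 1 was tested, and it had no unadjusted p under 0.05 in any comparison, and their sums were 94.0 to 223 with FoxD3-VP16, 121 to 216 with FoxD3 and 198 to 246 with the empty vector.

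The genes whose levels followed Axl most closely over the 12 arrays, among 22510 other probe sets with 1 symbol, were Glis2 (r = 0.955), Gpat3 (r = 0.953), Ccdc117 (r = 0.947), Pou3f1 (r = 0.944) and Card10 (r = 0.934). Glis2 is a zinc finger transcription factor, Gpat3 an enzyme of triglyceride synthesis, Pou3f1 a POU factor of Schwann cells and Card10 a scaffold of NF-kappaB signalling. Pou3f1 had mean log2 levels of 5.30 with FoxD3-VP16, 7.20 with FoxD3 and 5.06 with the empty vector, and Card10 had 7.02, 9.18 and 6.44 in the same order. Both were picked for their likeness to Axl, which fixes this order, and both other group means of Pou3f1 were below the limit. For Tyro3 the nearest were Cd9 (r = 0.964), Trim62 (r = 0.962) and Csnk1e (r = 0.960), and for Mertk Ift122 (r = 0.951), Hacl1 (r = 0.946) and Dnajc1 (r = 0.924). For Pros1 they were Mkrn1 (r = 0.980), Ndufa6 (r = 0.978) and Sbds (r = 0.977), and for Gas6 Asb18 (r = 0.915), Hnrnpk (r = 0.888) and Nufip2 (r = 0.880). These are correlations over arrays that share vectors and replicate numbers, given as a description.

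**Figure D4:**
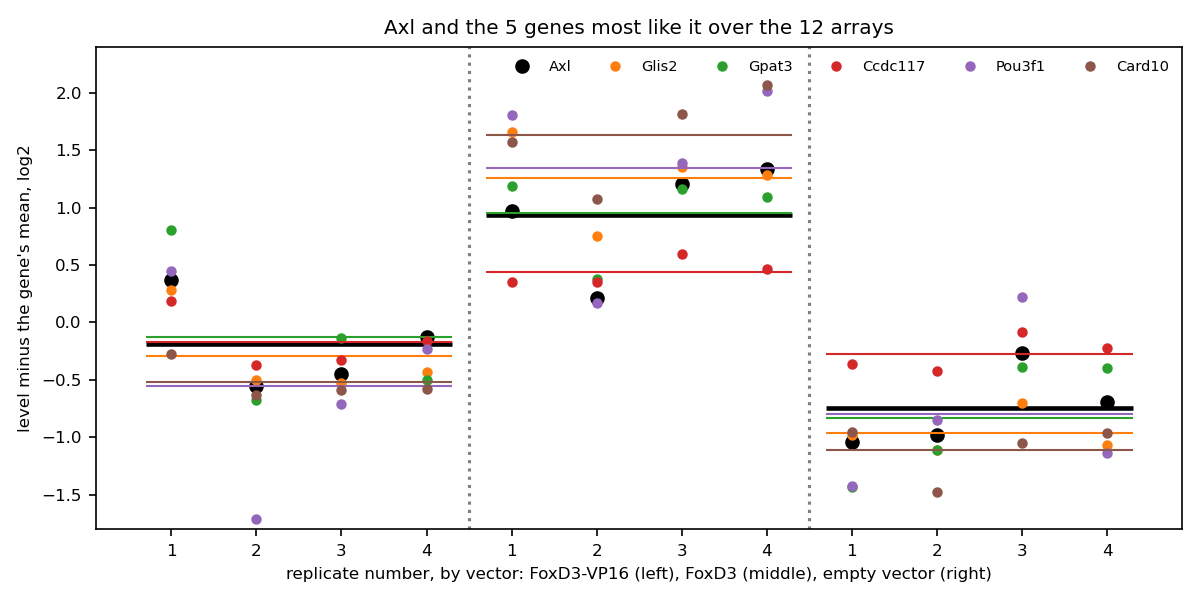
Levels of Axl and of the 5 genes most like it are drawn for the 12 arrays as log2 differences from each gene's own mean, with points for arrays 1 to 4 of each vector and horizontal bars for group means of 4 arrays. The 5 genes were picked for following Axl, so that all 6 have their highest group mean with FoxD3 is a description, and the array of FoxD3 numbered 2 is the lowest of its group for Axl.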

How the data were processed

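RNA of EGFP-sorted B16-F10 cells was amplified in 1 round to biotin-labelled antisense RNA and hybridised to 12 arrays, per the labels' protocols. The authors deposited intensities on a linear scale for 45101 probe sets. The tool is MAS5 per the submitters' processing notes, with no version in the sources used here, while 1 label mentions dChip. The mean of the deposited intensities without the lowest and highest 2% was 500.003 to 500.004 on every array. The number of arrays limits the precision.

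From these, log2(intensity + 16) was computed and quantile-normalised. The 64 control probe sets and the lowest 40% by mean were left out. The platform's annotation gave 1 symbol to 34945 probe sets and several to 932, and did not list 9160. The 3 comparisons were tested with limma 3.58.1 in R 4.3.3 (lmFit, eBayes with an intensity trend, 9 residual and 4.48 prior degrees of freedom) on all 12 arrays, without a block. The calculation was tested on simulated data. Python 3.11.15 with matplotlib 3.10.9 drew the plots.

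Replicate numbers are in the titles, and what they share is not stated. Deviations from group means correlated at 0.329 to 0.583 in all 12 same-numbered pairs of arrays, at 0.312 to 0.41 between numbers 3 and 4, and from -0.44 to 0.144 in the remaining 30, so the numbers were taken to pair the arrays. The pairing rests on this correlation alone.

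The members and 12 gene lists with 191 genes were chosen with earlier results of these data known. A list gene was taken at its brightest probe set. Named were all members, up to 4 called genes per list and comparison (the largest changes), up to 3 bright genes not called, and the 5 genes (Axl) or 3 genes (other members) most correlated. Alternatives changed the pseudocount, filter, normalisation, probe set choice, array weights, trend, block and arrays used.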

Additional observations from a re-analysis of the deposited data

Results flagged for a closer look

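In the 24 sets of 4 arrays that the members' probe sets form, 3 held an array far from its group, and chance alone marks about 1 in 20 such sets. All 3 arrays are numbered 1, the number whose hybridisation controls also stood apart. Tyro3 1425248_a_at had a log2 level of 7.557 on FoxD3 array 1, against 8.045 to 8.07 on the other FoxD3 arrays. Tyro3 1425249_a_at had 4.858 on empty-vector array 1, against 6.398 to 6.651 on the others of that vector. Pros1 1426246_at had 7.688 on FoxD3-VP16 array 1, against 9.165 to 9.23 on the others. Without the arrays numbered 1, and with the replicate number as a block, Pros1 was 0.89 higher with FoxD3-VP16 than with the empty vector on the log2 scale (limma adjusted p = 0.00862).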

How the results depend on the processing

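Across 23 alternatives for 18 results, 338 of 411 values kept their direction and their side of the threshold (for counts, stayed within 1.5 times). The number of probe sets called was 504 for FoxD3 against the empty vector, 62 for FoxD3-VP16 against the empty vector and 1520 for FoxD3-VP16 against FoxD3. With the replicate block these counts were 3145, 1418 and 5575, with array weights 5571, 4350 and 7253, with numbers 2 to 4 only 1083, 262 and 2939, and with those numbers and the block 2939, 1867 and 5689. The last of these fits, and the list counts without the arrays numbered 1, were chosen after seeing the data. Without the intensity trend FoxD3-VP16 against the empty vector had 28, and with the mean of all probe sets of a gene FoxD3-VP16 against FoxD3 had 920. Leaving out 1 array gave 198 to 700, 8 to 85 and 781 to 1723.

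Axl with FoxD3 against the empty vector kept its call in 10 of 12 fits without 1 array (1.53 to 1.91). With FoxD3-VP16 against FoxD3 it kept the call in 4 of 12 (-1.36 to -0.98) and lost it with a pseudocount of 1 (-1.18, adjusted p = 0.0503), with no filter (-1.12, 0.0683) and with the mean of probe sets (-0.53, 0.246).

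The replicate block brought calls for Tyro3 (FoxD3 against the empty vector 0.95, FoxD3-VP16 against FoxD3 -0.82), Mertk (FoxD3-VP16 against FoxD3 1.08) and Pros1 (FoxD3-VP16 against the empty vector 0.90, against FoxD3 0.97), and ended none. Array weights gave calls for Tyro3 (0.83 and -0.80), Mertk (0.99), Pros1 (1.00 and 1.06) and Gas6 (FoxD3-VP16 against FoxD3 -0.94, adjusted p = 0.00850). Numbers 2 to 4 gave calls for Tyro3 (0.83 and -0.89) and Pros1 (FoxD3-VP16 against FoxD3 0.99) and, with the block, also for Mertk (1.02) and Pros1 (FoxD3-VP16 against the empty vector 0.89).

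Changes near 0 turned sign. Tyro3 with FoxD3-VP16 against the empty vector gave -0.027 with the mean of probe sets and -0.057 with numbers 2 to 4, with or without the block. Without 1 array it ranged over -0.17 to 0.28, Gas6 in the same comparison over -0.50 to 0.14, and Pros1 with FoxD3 against the empty vector over -0.49 to 0.32. The cause was not tested. Gas6 fell below the filter with the mean of probe sets and has no value there. The other ranges without 1 array were, for FoxD3 against the empty vector, 0.66 to 1.10 (Tyro3), -0.87 to -0.35 (Mertk) and 0.07 to 0.67 (Gas6), for FoxD3-VP16 against the empty vector, 0.38 to 0.71 (Axl), 0.22 to 0.72 (Mertk) and 0.50 to 1.30 (Pros1), and for FoxD3-VP16 against FoxD3, -0.96 to -0.72 (Tyro3), 0.78 to 1.37 (Mertk), -0.82 to -0.28 (Gas6) and 0.59 to 1.37 (Pros1). Gas6 and the second probe sets of Axl and Gas6 lie near or below the brightness limit, which bounds what can be said of them.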
